A study of Homo sapiens with 20 samples.

Results

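The S100 calcium-binding protein genes of HL60 cells, a human acute myeloid leukaemia (AML) cell line, were described in cells labelled HK3-null and in Cas9-expressing control cells. The members were 10 genes named by symbol (S100A4, S100A6, S100A8, S100A9, S100A10, S100A11, S100A12, S100A13, S100P and S100Z) of 28051 named genes in the RNA sequencing (RNAseq) data. In addition, 4 of 8286 deposited regions of open chromatin, measured by the assay for transposase-accessible chromatin (ATACseq), list at least 1 of these genes. Each genotype was treated for 36 h with 1 µM all-trans retinoic acid (ATRA), a retinoid that drives HL60 cells towards neutrophils, or with 0.01% DMSO as diluent, which gave 4 groups of 3 RNAseq libraries and 2 ATACseq libraries each. The study made its knockout lines with a lentiviral CRISPR vector that carries Cas9 and a puromycin marker, and used clonal lines. All HK3-null libraries carry the same line label, KO-2G, so the genotype and the line cannot be told apart, and the replicates measure the spread between cultures of that line and of the Cas9 control.

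S100 proteins are small proteins with a pair of EF-hand calcium-binding loops that mostly work as dimers and change shape when they bind calcium, which exposes a surface for partner proteins. S100A8, S100A9 and S100A12 (the calgranulins) are stored in the cytosol of neutrophils and monocytes, where S100A8 and S100A9 pair as calprotectin, bind zinc and manganese outside the cell and act on receptors such as TLR4 and the receptor for advanced glycation end products. S100A4, S100A6, S100A10 and S100A11 are found in many cell types and bind cytoskeletal and membrane proteins, among them myosin and annexins, and most of the family lies in a cluster on the long arm of chromosome 1.

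RNA values were deposited as the log2 of scaled counts and are given here as normalized counts, that is 2 to the deposited value, which is a whole number. The libraries summed to between 29053838 and 31548189 normalized counts, and between 15031 and 16750 named genes were above 0. Before the S100 genes, the targeted gene HK3 (hexokinase 3) was read in every library. It had 90, 65 and 105 normalized counts in Cas9 DMSO, 1305, 1298 and 1850 in Cas9 ATRA, 344, 302 and 346 in HK3-null DMSO and 1384, 1285 and 1975 in HK3-null ATRA. In DMSO the libraries that carry the HK3-null label thus had more HK3 RNA than the controls, by 1.96 on the log2 scale (SE 0.21, limma adjusted p = 1.11e-05). In ATRA the difference was 0.05 (limma adjusted p = 0.84). Gene counts do not show whether the coding sequence of HK3 was altered, so HK3-null below names a label. The paper reports other evidence for its knockout clones, with small insertions and deletions found by sequencing the Cas9 cut site. Its mass spectrometry of pooled HL60 clones found HK3 protein after vitamin D3 in controls and none in the HK3 knockouts. The labels do not say whether KO-2G is among those clones. Promyelocytic markers were read as a check of the cell line, with 8 of 8 genes (MPO, ELANE, PRTN3, AZU1, CTSG, CD33, SPI1 and MYC) detected in every group and sums of 564597 to 882068 per library. T cell and erythroid markers summed to at most 13 per library, megakaryocyte and platelet markers to at most 30, epithelial markers to at most 42 and B cell markers to at most 194, with MS4A1 at 0 in all 4 groups. PAX5 of the B cell list had 0 to 2 counts in the Cas9 libraries but 70 to 119 in the HK3-null libraries. One library stood apart, Cas9 DMSO replicate 1, with 16750 genes above 0 against 15031 to 15801 in the others and with high values of several genes that were near 0 elsewhere, S100A16 (105 against 1 to 6) and the annexin gene ANXA2 (396 against 5 to 42) among them.

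RNA of the calgranulins was higher in HK3-null than in Cas9 libraries in both treatments. S100A8 was 37.2-fold and S100A9 20.4-fold higher in DMSO, S100A12 went from at most 4 normalized counts to at least 301, and S100A4 and S100A6 were 2.64-fold and 2.22-fold higher in DMSO. S100A10 went the other way and was 8.46-fold lower in DMSO. Of the 9 members that passed the filter on low values (in some group the mean of the log2 values had to exceed 3, which S100Z did not reach), 5 were called higher and 1 lower in DMSO, where a call needs an adjusted p under 0.05 in limma and at least a 2-fold change. Of all 13256 tested genes 11.1% were called higher and 8.21% lower. In ATRA 3 members were called higher and 1 lower, against 11.4% and 9.93% of all tested genes. The HK3-null and Cas9 libraries did not overlap for 9 of the 9 tested members in DMSO, against 63.8% of all tested genes, and for 8 of 9 in ATRA, against 63.4%. The median log2 difference of the 9 members was 1.15 in DMSO and 0.91 in ATRA, and that of all tested genes was 0.003 and 0.009. Among the members counted, S100A12 passed the filter only through its HK3-null libraries and S100A10 only through its Cas9 libraries. The members were also chosen with earlier results of these data known, so these counts and medians describe them and are no test of the family. In cell populations, fewer cells of a type and less RNA per cell cannot be told apart.

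**Figure D1:**
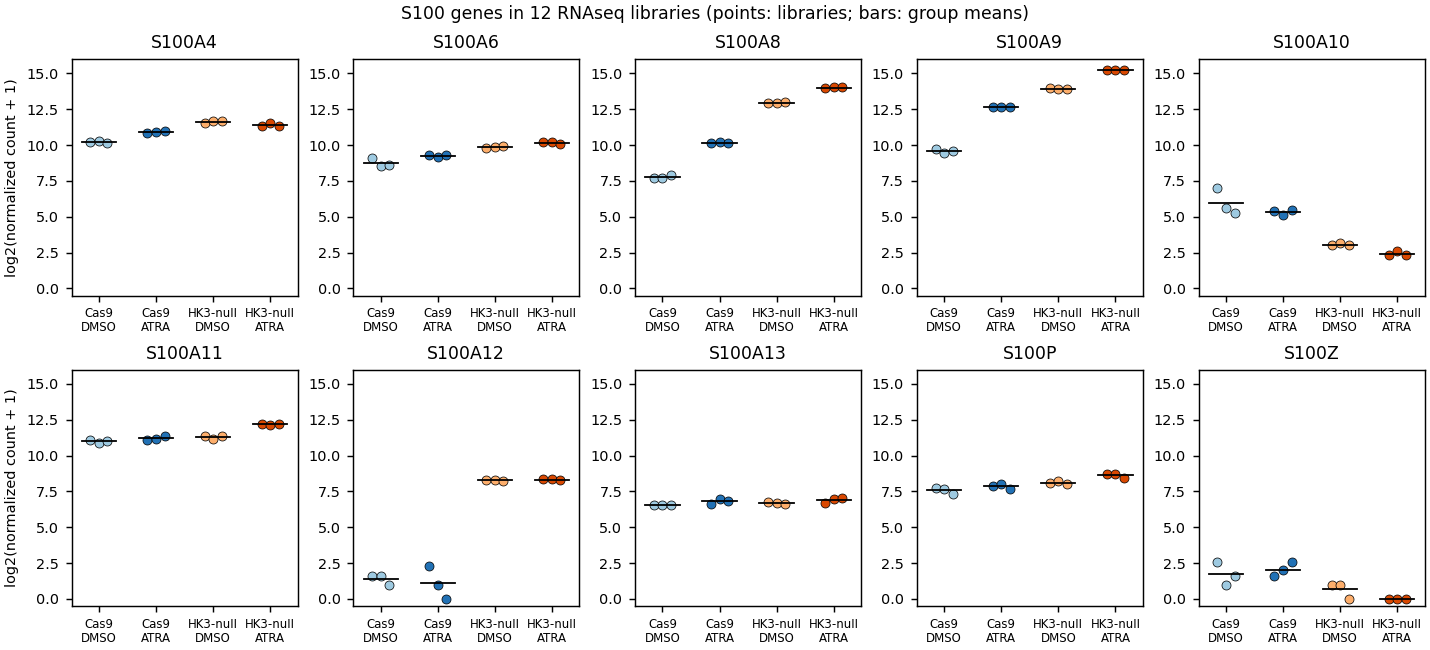
Level of each S100 gene in each of the 12 RNAseq libraries, as log2(normalized count + 1) on the y axis, with the 4 groups on the x axis, points for libraries and bars for group means. S100A8 and S100A9 rose from group to group in the order Cas9 DMSO, Cas9 ATRA, HK3-null DMSO and HK3-null ATRA, S100A12 was near 0 in both Cas9 groups, and S100A10 and S100Z had their low values in the HK3-null groups.

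S100A9, the calprotectin subunit with the long C-terminal tail, had 843, 694 and 767 normalized counts in Cas9 DMSO (768 ± 74.5, SD, n = 3) and 15826, 15646 and 15278 in HK3-null DMSO. In ATRA it had 6521, 6559 and 6560 in Cas9 and 39299, 38142 and 39136 in HK3-null. Every HK3-null library was above every Cas9 library, and HK3-null DMSO was already above Cas9 ATRA. The log2 difference between genotypes was 4.35 (SE 0.06, limma adjusted p = 2.46e-12) in DMSO and 2.57 (SE 0.06, adjusted p = 1.62e-10) in ATRA.

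S100A8, the other calprotectin subunit, had 207, 203 and 239 normalized counts in Cas9 DMSO (216 ± 19.7) and 7883, 7928 and 8247 in HK3-null DMSO. With ATRA it had 1131, 1186 and 1131 in Cas9 and 16095, 16612 and 16670 in HK3-null. The 4 groups did not overlap one another. Its log2 difference between genotypes was 5.22 (SE 0.06, adjusted p = 8.83e-13) in DMSO and 3.84 (SE 0.06, adjusted p = 1.30e-11) in ATRA. Together S100A8 and S100A9 made up 0.00318% ± 0.000279 of all normalized counts in Cas9 DMSO, 0.0257% ± 0.000775 in Cas9 ATRA, 0.0783% ± 0.00096 in HK3-null DMSO and 0.179% ± 0.00733 in HK3-null ATRA (SD, n = 3).

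The bases just before the transcript start of the calgranulin genes and of S100A10 are shown because these 4 members had the widest differences between genotypes among the 9 tested. Each is 250 bases of the GRCh38.p14 reference as given by RefSeq, read 5′ to 3′ on the strand of the gene and ending at the base before the start: S100A9 on the plus strand (chr1:153357604-153357853), and on the minus strand S100A8 (chr1:153391074-153391323), S100A12 (chr1:153375622-153375871) and S100A10 (chr1:151993860-151994109). Capitals mark matches on either strand to 5 letter strings. These were the core bound by PU.1 and other ETS factors (GAGGAA), the string used for C/EBP factors (TTGCNNAA) and the single site of a retinoid receptor (AGGTCA). The other two were the AP-1 string (TGANTCA) and the TATA box (TATAAA).
S100A9: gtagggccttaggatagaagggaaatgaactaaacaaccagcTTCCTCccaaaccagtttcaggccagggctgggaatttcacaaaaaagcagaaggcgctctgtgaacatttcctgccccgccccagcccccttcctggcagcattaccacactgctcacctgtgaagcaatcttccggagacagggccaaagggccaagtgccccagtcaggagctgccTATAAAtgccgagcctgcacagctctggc
S100A8: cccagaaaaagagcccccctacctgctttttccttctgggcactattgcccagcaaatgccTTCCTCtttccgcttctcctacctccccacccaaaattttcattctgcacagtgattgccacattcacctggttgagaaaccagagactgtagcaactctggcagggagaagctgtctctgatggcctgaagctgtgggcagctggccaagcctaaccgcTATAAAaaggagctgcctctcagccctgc
S100A12: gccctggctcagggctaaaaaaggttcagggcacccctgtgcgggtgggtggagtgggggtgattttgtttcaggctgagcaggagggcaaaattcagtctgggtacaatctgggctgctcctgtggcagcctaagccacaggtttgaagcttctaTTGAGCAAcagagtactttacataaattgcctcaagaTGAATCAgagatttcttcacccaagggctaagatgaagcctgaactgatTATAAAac
S100A10: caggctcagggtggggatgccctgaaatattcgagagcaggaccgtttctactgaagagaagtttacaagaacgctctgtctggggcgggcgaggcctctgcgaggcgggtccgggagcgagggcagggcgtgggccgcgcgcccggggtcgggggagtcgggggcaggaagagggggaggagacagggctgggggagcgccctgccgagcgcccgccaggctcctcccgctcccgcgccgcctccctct
S100A8 and S100A9 each hold 1 ETS core, 189 and 208 bases before the start, and a TATA box 29 bases before it. S100A12 holds a C/EBP string 94 bases, an AP-1 string 57 bases and a TATA box 8 bases before the start, and S100A10 holds none of the 5 letter strings. Among 35116 RefSeq windows of the same length before gene starts, 23.6% hold the ETS core, 9.05% the C/EBP string, 12.1% the retinoid receptor site, 6.57% the AP-1 string and 10.7% the TATA box. The TATA box letters occur in 6 of the 9 members with a window at the transcript start used here (S100A4, S100A8, S100A9, S100A12, S100A13 and S100P), and the ETS core in 2 of the 9. Base composition varied along the members, with 1 CpG pair in the S100A12 window, 2 in S100A8, 4 in S100A9 and in S100P, 7 in S100A4, 10 in S100A13, 15 in S100A11 and 24 in S100A6 and in S100A10, against a median of 11 over all windows. These matches describe letters and not bound factors.

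S100A12, the third calgranulin and a ligand of the receptor for advanced glycation end products, had 2, 2 and 1 normalized counts in Cas9 DMSO and 4, 1 and 0 in Cas9 ATRA. The HK3-null libraries had 313, 310 and 301 in DMSO and 331, 324 and 310 in ATRA. Summed over libraries the ratio of HK3-null to Cas9 was 184.8 in DMSO (924 against 5, exact 95% interval 78.9 to 570) and 193 in ATRA (965 against 5, interval 82.4 to 596), with intervals that treat normalized counts as counts and cover counting error only. The files write a count of 0 as log2 of 0.001, and on that scale the difference was 7.60 (SE 2.25, adjusted p = 0.0136) in DMSO and 10.98 (SE 2.25, adjusted p = 0.00135) in ATRA. One library at 0 enters that fit, and on the log2(normalized count + 1) scale the differences were 6.88 (SE 0.44, adjusted p = 4.44e-08) and 7.23 (SE 0.44, adjusted p = 2.56e-08). Leaving out the library with the 0, Cas9 ATRA replicate 3, gave 7.33 in ATRA on the deposited scale.

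S100A4, which binds non-muscle myosin and is known from motile cells, had 1207, 1236 and 1138 normalized counts in Cas9 DMSO and 2965, 3229 and 3254 in HK3-null DMSO, a log2 difference of 1.40 (SE 0.06, adjusted p = 1.47e-08). In ATRA its libraries had 1841, 1901 and 1981 in Cas9 and 2611, 2935 and 2606 in HK3-null. The groups did not overlap in either treatment, and the difference in ATRA was 0.51 (SE 0.06, adjusted p = 3.46e-05), under 2-fold.

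S100A6 (calcyclin), which binds annexins and the calcyclin-binding protein, had 540, 363 and 390 in Cas9 DMSO and 909, 945 and 974 in HK3-null DMSO. With ATRA it had 641, 582 and 625 in Cas9 and 1186, 1174 and 1101 in HK3-null. Its libraries were higher in HK3-null without overlap, by 1.15 on the log2 scale (SE 0.12, adjusted p = 1.13e-05) in DMSO and by 0.91 (SE 0.12, adjusted p = 6.45e-05) in ATRA. The 540 of Cas9 DMSO replicate 1 was the high value of that group.

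S100A11, an annexin A1 partner in many cell types, had 2183, 1866 and 2096 in Cas9 DMSO and 2621, 2345 and 2591 in HK3-null DMSO, a log2 difference of 0.30 (SE 0.08, adjusted p = 0.0061). In ATRA it had 2216, 2276 and 2592 in Cas9 and 4830, 4585 and 4694 in HK3-null. The genotypes stood clearly apart in ATRA, where the log2 difference of 0.997 (SE 0.08, adjusted p = 6.91e-07) fell just short of the 2-fold call.

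S100P, a family member on chromosome 4 (chr4:6693878-6697170) that binds ezrin and is known from placenta and myeloid cells, had 213, 204 and 162 in Cas9 DMSO and 268, 305 and 255 in HK3-null DMSO. In ATRA it had 231, 258 and 208 in Cas9 and 425, 427 and 343 in HK3-null. The groups did not overlap, and the log2 difference was 0.52 (SE 0.14, adjusted p = 0.0081) in DMSO and 0.78 (SE 0.14, adjusted p = 0.00056) in ATRA. After quantile normalization the DMSO difference was 0.37 and did not pass (adjusted p = 0.0642).

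S100A13, which takes part in the release of growth factor and cytokine proteins that lack a signal peptide, had 95, 92 and 93 in Cas9 DMSO, 106, 104 and 98 in HK3-null DMSO, 99, 126 and 114 in Cas9 ATRA and 102, 126 and 129 in HK3-null ATRA. It passed the test in neither treatment, with log2 differences of 0.14 (95% interval -0.16 to 0.44, adjusted p = 0.42) in DMSO and 0.07 (interval -0.23 to 0.37, adjusted p = 0.67) in ATRA. A change of more than 1.5-fold lies outside both intervals.

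S100A10, the annexin A2 partner that does not bind calcium itself, was the tested member with lower RNA in HK3-null. It had 130, 48 and 38 normalized counts in Cas9 DMSO and 7, 8 and 7 in HK3-null DMSO, and 42, 34 and 44 in Cas9 ATRA against 4, 5 and 4 in HK3-null ATRA. The genotypes did not overlap in either treatment, with log2 differences of -3.08 (SE 0.40, adjusted p = 5.74e-05) in DMSO and -3.21 (SE 0.40, adjusted p = 3.51e-05) in ATRA. The 130 belongs to the library that stood apart, and without it the DMSO difference was -2.54 (adjusted p = 3.60e-05). In the same library ANXA2 was 396 and S100A16 105, and their part in the S100A10 value was not tested. ANXA2 in the other 11 libraries lay between 5 and 42.

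S100Z, on chromosome 5, had 5, 1 and 2 normalized counts in Cas9 DMSO, 2, 3 and 5 in Cas9 ATRA, 1, 1 and 0 in HK3-null DMSO and 0 in all 3 HK3-null ATRA libraries. These values were too low to be tested. The 541 tested genes of chromosome 5 had a median log2 difference between genotypes of -0.75 in DMSO and -0.77 in ATRA, while those of chromosome 1 had 0.02 and 0.05 and those of chromosome 4 had 0.07 and 0.05. Subtracting the chromosome median left the calls between genotypes of the 9 tested members in place, and changed no test outcome between genotypes among them.

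**Figure D2:**
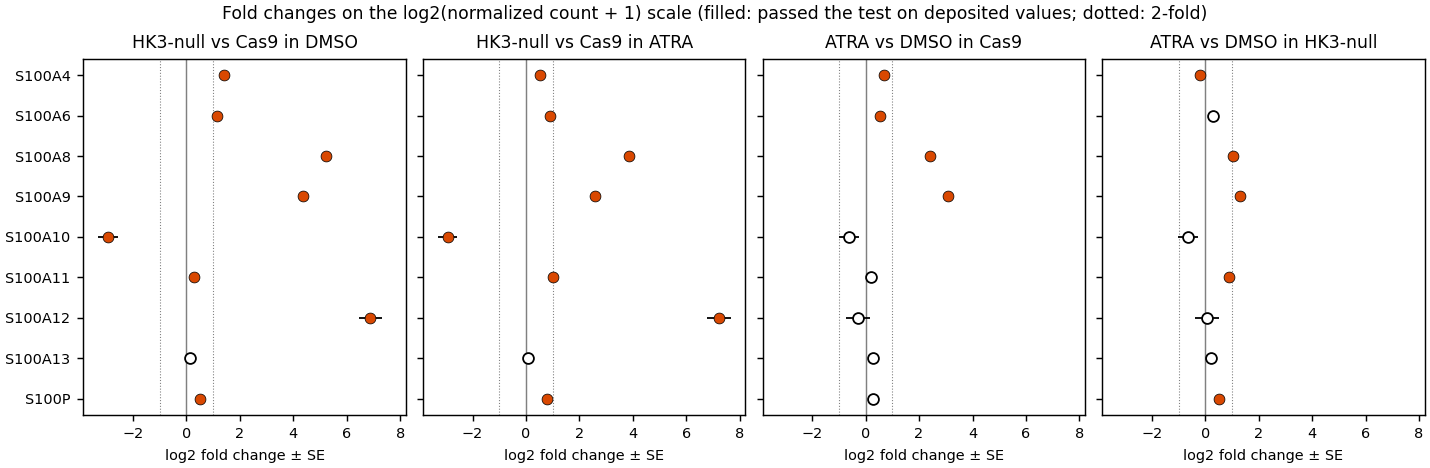
Log2 fold changes of the 9 tested S100 genes (x axis, with bars of 1 SE on each side) in 4 comparisons, fitted on the log2(normalized count + 1) scale so that S100A12 can be shown. Filled points passed the test on the deposited scale and dotted lines mark 2-fold. S100A8, S100A9 and S100A12 lie far to the right in both comparisons of genotype, S100A10 lies to the left, and in the comparisons of treatment only S100A8 and S100A9 lie beyond 2-fold.

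ATRA raised the calprotectin genes in both genotypes. In Cas9 cells S100A9 rose 8.55-fold (log2 3.10, SE 0.06, adjusted p = 1.73e-11) and S100A8 rose 5.33-fold (log2 2.41, SE 0.06, adjusted p = 1.80e-10). These were the 2 members called, against 6.84% of all tested genes called higher, and S100A4 (0.68, adjusted p = 9.21e-06) and S100A6 (0.54, adjusted p = 0.0046) rose by less than 2-fold. S100A11 had a log2 difference of 0.20 (adjusted p = 0.051) and S100P of 0.27 (adjusted p = 0.14), and both passed with the replicate block (adjusted p = 0.0106 and 0.0163). S100A11 also passed with pseudocounts of 1 and 10 (adjusted p = 0.0493 and 0.0483), after quantile normalization (adjusted p = 0.0252), with the chromosome median subtracted (adjusted p = 0.0357) and without Cas9 ATRA replicate 1 or Cas9 DMSO replicate 1 (adjusted p = 0.0368 and 0.0395). S100A10 (-0.64) and S100A13 (0.27) did not pass, and S100A12 stayed at 0 to 4 counts.

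In HK3-null cells the ATRA response was smaller for the calprotectin genes. S100A9 rose 2.49-fold (log2 1.32, SE 0.06, adjusted p = 1.54e-08) and S100A8 2.05-fold (log2 1.04, SE 0.06, adjusted p = 1.32e-07), the 2 members called, against 8.06% of all tested genes called higher. S100A11 rose by 0.90 (SE 0.08, adjusted p = 2.27e-06) and S100P by 0.53 (SE 0.14, adjusted p = 0.0087), while S100A4 fell by 0.21 (SE 0.06, adjusted p = 0.0159). The S100A4 difference, which is under 2-fold, no longer passed without HK3-null ATRA replicate 1 or 3 or HK3-null DMSO replicate 2 or 3 (log2 -0.19, -0.18, -0.20 and -0.19, adjusted p = 0.0585, 0.0527, 0.0583 and 0.0566). S100A6 had a difference of 0.29 (adjusted p = 0.0704), which passed with the replicate block (adjusted p = 0.0368) and without Cas9 DMSO replicate 1 or replicate 2 (adjusted p = 0.00496 and 0.0459). S100A10 had -0.76 (adjusted p = 0.14), which passed without Cas9 DMSO replicate 1 (adjusted p = 0.0288) and after quantile normalization (-1.38, adjusted p = 0.0108).

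The difference between the 2 ATRA responses was tested directly, as the interaction of genotype and treatment. It passed for 4 of the 9 tested members, 3 with a more negative change in HK3-null, against 4.64% of all tested genes, and 1 with a more positive change, against 4.48%. With the replicate block these 4 members again passed, but so did 21.9% of all tested genes, against 9.12% without it. The response of S100A9 was smaller in HK3-null by 1.78 on the log2 scale (interaction -1.78, SE 0.08, adjusted p = 5.17e-07), that of S100A8 by 1.38 (-1.38, SE 0.09, adjusted p = 4.88e-06), and that of S100A4 by 0.89 (-0.89, SE 0.09, adjusted p = 0.000134), where the direction also turned. S100A11 was the opposite, with a larger response in HK3-null (0.70, SE 0.11, adjusted p = 0.0020). Without Cas9 DMSO replicate 1 the S100A6 interaction also passed (-0.42, adjusted p = 0.0347, against -0.25 and 0.48 with all libraries). In absolute normalized counts the S100A9 means rose from 768 to 6547 in Cas9 and from 15583 to 38859 in HK3-null, so the smaller fold went with a larger gain in counts.

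**Figure D3:**
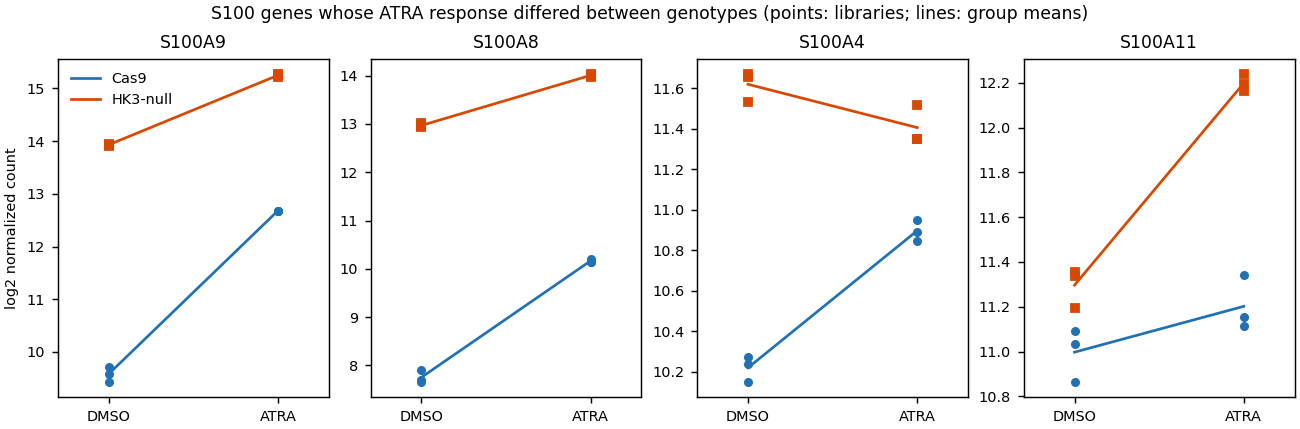
Log2 normalized counts (y axis) of the 4 S100 genes that passed the interaction test, in DMSO and ATRA (x axis), with a point for each of the 3 libraries and lines through the group means. The Cas9 lines are steeper than the HK3-null lines for S100A9 and S100A8, the HK3-null line of S100A4 slopes down and that of S100A11 rises more steeply than in Cas9.

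Levels were compared between genes only per kilobase of transcript, with GENCODE transcript lengths between 408 bases for S100A8 and 1553 for S100Z. In Cas9 DMSO the order ran S100A11 (3638 normalized counts per kb), S100A4 (2327), S100A9 (1340), S100A6 (993), S100A8 (530), S100P (410), S100A13 (196), S100A10 (107), S100A12 (3.44) and S100Z (1.72), and the neighbours S100A9 and S100A6, S100A13 and S100A10, and S100A12 and S100Z overlapped between libraries. In HK3-null ATRA it ran S100A9 (67817), S100A8 (40341), S100A11 (8353), S100A4 (5297), S100A6 (2658), S100P (846), S100A12 (663), S100A13 (249), S100A10 (6.46) and S100Z (0), with no overlap between neighbours. Between these 2 groups, which differ in genotype and in treatment, the leading gene changed from S100A11 to S100A9, and S100A8 moved from rank 5 to rank 2. S100A9 already led in Cas9 ATRA (11425, against 4194 for S100A11, without overlap), where S100A8 had rank 4. In HK3-null DMSO S100A9 (27196) and S100A8 (19655) had ranks 1 and 2. S100A8 and S100A9 together rose from 19.6% of the summed per-kb level of the 10 members in Cas9 DMSO to 58.4% in Cas9 ATRA, 76.7% in HK3-null DMSO and 85.7% in HK3-null ATRA.

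The balance of the calprotectin subunits also differed between groups. Per length, the S100A9 to S100A8 ratio was 2.90, 2.43 and 2.29 in Cas9 DMSO, 4.11, 3.94 and 4.13 in Cas9 ATRA, 1.43, 1.41 and 1.32 in HK3-null DMSO and 1.74, 1.63 and 1.67 in HK3-null ATRA. No 2 groups overlapped, and the ratio was nearer to 1 in HK3-null in both treatments. The exact two-sided permutation test over libraries gave p = 0.1 for each of the 4 comparisons, which is the smallest value that 3 against 3 libraries allow.

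**Figure D4:**
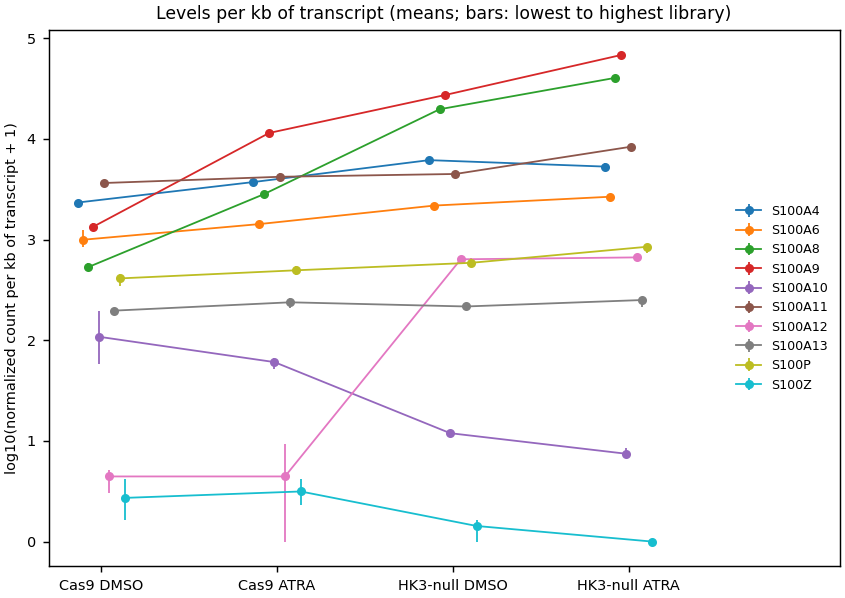
Level per kilobase of transcript of each S100 gene (y axis, log10 of normalized counts per kb plus 1) in the 4 groups (x axis), with points for means over 3 libraries, bars from the lowest to the highest library and lines that only join points of the same gene. S100A9 climbs from the middle of the order in Cas9 DMSO to the top in Cas9 ATRA and in both HK3-null groups. S100A8 stands next to it in both HK3-null groups, and S100A12 crosses from the bottom to near S100P.

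The ATACseq regions that list a member were read next. All 8286 deposited regions differ by 1.5-fold or more between the genotypes in ATRA, so that contrast, which chose the regions, is given as values only. The other contrasts use some of the same libraries. In DMSO 42.7% of the 6214 regions above a minimum mean signal were called higher in HK3-null (adjusted p under 0.05 and 1.5-fold), and so were the 2 member regions that reached that minimum, a count from which nothing is read since these regions were chosen for a difference between the genotypes. The signal is the density of fragments per region after all libraries were reduced to the same number of fragments, and its depth is unknown. The bases of 3 regions are shown because 2 of them could be tested and the other lies before the gene that was lower in HK3-null, in GRCh38 on the plus strand with capitals for the letter strings given above. The S100A9 region is shown by its first 300 bases after the end of the S100A9 transcript (chr1:153361024-153361323), the S100A6 and S100A4 region (chr1:153538294-153538493) and the S100A10 region (chr1:152001020-152001303) whole.
S100A9 region: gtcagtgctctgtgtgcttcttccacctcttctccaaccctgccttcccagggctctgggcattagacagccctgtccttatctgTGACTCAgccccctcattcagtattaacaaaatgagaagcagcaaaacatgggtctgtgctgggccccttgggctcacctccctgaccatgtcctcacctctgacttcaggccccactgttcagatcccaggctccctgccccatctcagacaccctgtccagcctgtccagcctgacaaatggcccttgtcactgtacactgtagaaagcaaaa
S100A6 and S100A4 region: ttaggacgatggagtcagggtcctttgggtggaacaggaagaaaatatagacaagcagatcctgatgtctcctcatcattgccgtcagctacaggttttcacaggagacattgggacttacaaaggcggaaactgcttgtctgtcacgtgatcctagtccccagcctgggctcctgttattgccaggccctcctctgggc
S100A10 region: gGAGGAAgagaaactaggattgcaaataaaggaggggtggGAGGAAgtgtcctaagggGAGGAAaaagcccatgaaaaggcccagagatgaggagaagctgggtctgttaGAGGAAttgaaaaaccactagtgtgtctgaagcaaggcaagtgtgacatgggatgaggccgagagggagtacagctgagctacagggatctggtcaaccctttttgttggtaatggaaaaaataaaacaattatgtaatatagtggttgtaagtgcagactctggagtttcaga
The whole S100A9 region holds 1 AP-1 string, which lies in the stretch shown, and 3 ETS cores outside it, and in windows of that length 28.7% and 64.7% of the 8286 regions hold at least 1 copy. The S100A10 region holds 4 ETS cores, a string found in at least 1 copy in 41.8% of the 8286 regions when windows of the same length were centred on them. The S100A6 and S100A4 region holds none of the 5 strings.

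The region listed for S100A9 alone (chr1:153360758-153361524) covers part of the coding sequence and 3′ end of the last exon and the bases beyond, with its centre 3.29 kb after the transcript start. Its signal was 2.33 and 6.29 in Cas9 DMSO, 4.58 and 4.38 in Cas9 ATRA, 46.1 and 44.9 in HK3-null DMSO and 98.2 and 62.4 in HK3-null ATRA. Each HK3-null library was above each Cas9 library, and in DMSO the difference on the log2(signal + 1) scale was 3.24 (SE 0.42). This difference is a description and not a test, since the region was chosen for a difference between the genotypes. It also reached the minimum mean signal only through its HK3-null libraries. Against 18.2% of tested regions called with ATRA in Cas9 and 16.8% in HK3-null, neither member region was called. At the S100A9 region ATRA made a difference of 0.15 in Cas9 (95% interval -0.70 to 1.00, adjusted p = 0.86) and of 0.77 in HK3-null (95% interval -0.08 to 1.62, adjusted p = 0.23). In HK3-null each ATRA library was above each DMSO library. The ATRA libraries took part in the choice of the regions, and each group had 2 libraries. These fits therefore cannot decide whether the signal here followed the RNA of S100A9, which rose with ATRA in both genotypes.

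A second region (chr1:153538293-153538493) lists S100A6, S100A5, S100A4 and S100A3. It lies in an intron of S100A5, with its centre 2.4 kb before the S100A6 start and 7.41 kb after that of S100A4. Its signal was 7.17 and 8.83 in Cas9 DMSO, 9 and 2.83 in Cas9 ATRA, 46.2 and 36.2 in HK3-null DMSO and 30.3 and 33.3 in HK3-null ATRA. It was higher in HK3-null without overlap, by 2.22 in DMSO (SE 0.43), the direction of the RNA of S100A6 and S100A4. For the reasons given for the S100A9 region this is a description, and nothing is read from the shared direction. The ATRA differences were -0.53 in Cas9 (adjusted p = 0.46) and -0.35 in HK3-null (adjusted p = 0.66), with the same limits as at the S100A9 region.

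The S100A10 region (chr1:152001019-152001303) lies 7.3 kb before the S100A10 start, inside a long non-coding RNA gene. Its signal was 2.67 and 5.56 in Cas9 DMSO, 2.75 and 1.86 in Cas9 ATRA, 7.11 and 11.6 in HK3-null DMSO and 18 and 29.3 in HK3-null ATRA. The HK3-null libraries were above the Cas9 libraries, in ATRA through the way the regions were chosen. The region was under the minimum mean signal of 17.1, and a fit without that filter gave a DMSO difference of 1.04 that did not pass (adjusted p = 0.0818).

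The S100Z region (chr5:76849841-76850139) spans the S100Z transcript start. Its signal was 9.44 and 16.7 in Cas9 DMSO, 29.1 and 13.1 in Cas9 ATRA, 5.78 and 6.44 in HK3-null DMSO and 3.78 and 0 in HK3-null ATRA. The HK3-null libraries were below the Cas9 libraries, in ATRA again through the choice of regions. It was also under the minimum signal, and without the filter the DMSO difference was -0.94 (adjusted p = 0.17).

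**Figure D5:**
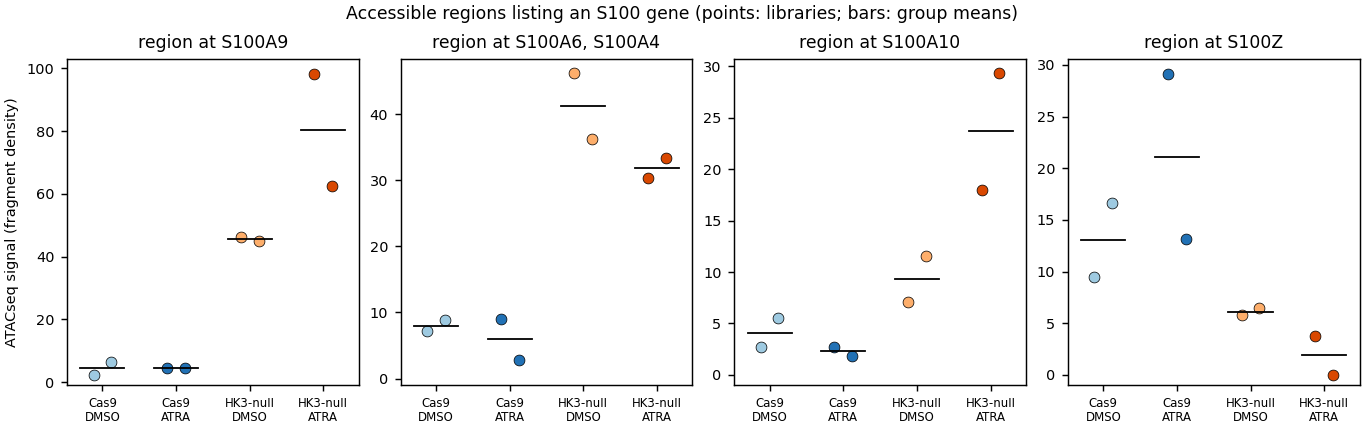
ATACseq signal (fragment density, y axis, own scale in each panel) of the 4 regions that list an S100 gene, in the 4 groups (x axis), with points for the 2 libraries of each group and bars for means. The S100A9 and the S100A6 and S100A4 regions stand at 30.3 or above in the HK3-null libraries and at 9 or below in the Cas9 libraries, and the S100Z region has its low values in HK3-null ATRA.

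The partner genes of S100 proteins were listed from general knowledge (receptors, annexins, myosins, the NADPH oxidase that S100A8 and S100A9 feed with arachidonic acid, and others). Of 33 genes 27 were tested. In DMSO 7 were called higher and 1 lower in HK3-null, with a median log2 difference of 0.15, where 11.1% of all tested genes were called higher and 8.21% lower. In ATRA 6 were higher and 2 lower, with a median of 0.49, against 11.4% and 9.93% of all tested genes. CYBB, the catalytic oxidase subunit, had 241, 251 and 180 normalized counts in Cas9 DMSO and 8433, 8696 and 7412 in HK3-null DMSO (log2 5.20, SE 0.11, adjusted p = 4.76e-11). It was also higher in ATRA by 2.91 (adjusted p = 3.90e-09). NCF1, a cytosolic oxidase subunit with near-identical pseudogene copies that counting can confuse, was higher by 3.45 in DMSO (SE 0.17, adjusted p = 2.61e-08). CYBB and NCF1 moved in the direction of S100A8 and S100A9.

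Among the other partners, CD36, a scavenger receptor, had 1, 0 and 0 counts in Cas9 DMSO and 7, 4 and 9 in HK3-null DMSO, and was called higher (log2 9.30, SE 2.04, adjusted p = 0.0024, with 2.55 on the log2(normalized count + 1) scale). AHNAK, the large scaffold that the S100A10 and annexin A2 complex binds, was lower in Cas9 ATRA (97, 159 and 137) than in HK3-null ATRA (1152, 1057 and 1105), by 3.10 (SE 0.16, adjusted p = 3.22e-08), and in DMSO the difference was 3.26 (adjusted p = 2.56e-08). With ATRA AHNAK was lower in both genotypes, with log2 differences of -1.96 in Cas9 (adjusted p = 2.94e-06) and -2.11 in HK3-null (adjusted p = 9.08e-07). TGM2, a transglutaminase and known ATRA target, had 801, 946 and 1393 in Cas9 ATRA and 32339, 30084 and 39244 in HK3-null ATRA (log2 5.05, SE 0.70, adjusted p = 7.35e-05).

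With ATRA 6 partners were called higher and 1 lower in Cas9, and 7 higher and 1 lower in HK3-null. Of all tested genes 6.84% were called higher and 2.78% lower in Cas9, and 8.06% higher and 6.05% lower in HK3-null. TGM2 rose by 8.55 in Cas9 (adjusted p = 2.84e-06) and by 12.51 in HK3-null (adjusted p = 7.59e-08), NCF1 by 6.54 and 4.45 (adjusted p = 1.98e-10 and 4.43e-09) and CYBB by 4.78 and 2.48 (adjusted p = 7.16e-11 and 1.24e-08). CD36 rose from 1, 0 and 0 to 59, 59 and 109 counts in Cas9 and from 7, 4 and 9 to 514, 499 and 749 in HK3-null. On the deposited scale CD36 in HK3-null lost its call without HK3-null ATRA replicate 3 or HK3-null DMSO replicate 2 (adjusted p = 0.0545 and 0.0599). The 0 values of Cas9 DMSO enter the spread of that fit. On the log2(normalized count + 1) scale the rise in HK3-null was 6.29 (SE 0.37, adjusted p = 2.87e-08). The TGM2 rise in Cas9 moved to 9.49 without Cas9 DMSO replicate 1 and to 7.83 without Cas9 DMSO replicate 2.

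The 2 receptors named above were read after their values had been seen. AGER, the receptor for advanced glycation end products, was higher in HK3-null by 1.36 in DMSO (SE 0.14, adjusted p = 1.11e-05) and by 1.56 in ATRA (SE 0.14, adjusted p = 3.03e-06). With the median of its chromosome subtracted the AGER differences were 0.83 and 0.99, under 2-fold, and no longer called. TLR4 had a difference of 0.13 in DMSO (adjusted p = 0.13) and was higher by 0.47 in ATRA (SE 0.07, adjusted p = 9.56e-05).

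Genes that neighbour the members on chromosome 1, within 250 kb of the cluster, were set beside them. Of 11 tested, 1 was called higher and 2 lower in DMSO, where 11.1% and 8.21% of all tested genes were, with a median log2 difference of -0.25 against 1.15 for the members. In ATRA 1 was higher and 2 lower, where 11.4% and 9.93% of all tested genes were, with a median of -0.08. THEM4, a thioesterase, was higher in DMSO by 1.38 (SE 0.19, adjusted p = 7.89e-05), and SLC27A3, a fatty acid transport protein, was higher in ATRA by 1.09 (SE 0.17, adjusted p = 0.00023). TDRKH, a germline RNA pathway gene, was lower by 1.84 on the log2 scale in DMSO (log2 -1.84, adjusted p = 0.00016) and by a like amount in ATRA (-1.83, adjusted p = 0.00015). TCHH (trichohyalin) was lower too (-1.57, adjusted p = 0.0088, and -1.39, adjusted p = 0.0153), though without HK3-null ATRA replicate 1 the ATRA call was lost (adjusted p = 0.0621). With ATRA, SLC27A3 was the 1 neighbour called in either genotype (1.18 in Cas9, adjusted p = 0.00026, and 1.47 in HK3-null, adjusted p = 3.25e-05). Of the 11 other S100 genes in the files S100B alone passed the filter. S100B had 21, 15 and 29 counts in Cas9 DMSO, 26, 21 and 27 in HK3-null DMSO, 57, 40 and 50 in Cas9 ATRA and 123, 134 and 139 in HK3-null ATRA, a difference between genotypes of 1.44 in ATRA (SE 0.25, adjusted p = 0.00041).

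Markers of other myeloid cell types were also higher in HK3-null, the genotype with the higher calgranulin RNA. With ATRA the sums did not all follow S100A8 and S100A9, since those of the eosinophil markers were lower in both genotypes and those of the monocyte markers overlapped between treatments in HK3-null. The eosinophil sums were mostly PRG2, whose means went from 7723 to 324 in Cas9 and from 166090 to 48407 in HK3-null. CLC of the same list went the other way, from 5.33 to 16 in Cas9 and from 182 to 357 in HK3-null. The 8 neutrophil maturation genes (ITGAM, CYBB, NCF1, FPR1, CSF3R, MMP9, LTF and CAMP, of which CYBB and NCF1 are also partners) were called higher in HK3-null for 8 of 8 in DMSO and 7 of 8 in ATRA, against 11.1% and 11.4% of all tested genes. Their sum per library ran from 2086 to 2155 in Cas9 DMSO, 14620 to 15417 in Cas9 ATRA, 12393 to 14100 in HK3-null DMSO and 70355 to 74312 in HK3-null ATRA. With ATRA 3 of the 8 were called higher in Cas9 and 4 in HK3-null, against 6.84% and 8.06% of all tested genes. In HK3-null the means of MMP9 (53 to 21.3) and LTF (64 to 40) were lower with ATRA, and that of FPR1 stayed near its level (215 to 220). Monocyte markers summed to 49 to 154, 280 to 435, 676 to 714 and 581 to 710 in the same order, with 4 and 3 of the 5 tested called higher in HK3-null and 1 called lower in ATRA. Eosinophil markers summed to 7260 to 8173, 273 to 410, 163448 to 171162 and 43148 to 52182, with 3 of 3 tested called higher in both treatments. Their part in the S100 values was not tested.

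The genes whose profile over the 12 libraries lay nearest to each of 4 members were found by the root mean square difference of centred log2 values as a description, among the 10666 genes that averaged 50 or more normalized counts. For S100A8 they were the phosphatase gene PTP4A3 (0.29), SUOX (sulfite oxidase, 0.39) and CLC (galectin-10, 0.40), and for S100A9 MPEG1 (perforin-2, 0.28), ABTB1 (0.41) and PTP4A3 (0.41). The profile of S100A12 had no near neighbour, with STAG3 at 1.18, CLEC4D at 1.87 and B3GNT7 at 2.72, a measure that the single 0 of S100A12 enters. For S100P they were FAM210B (0.09), PFKFB3 (0.10) and LRPAP1 (0.10), whose levels changed by small factors like those of S100P.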

How the data were processed

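HL60 RNA was measured by RNAseq in 12 libraries and open chromatin by ATACseq in 8, grouped by the deposited genotype and treatment labels. The authors deposited RNA values on a log2 scale, with reads mapped to GRCh38. They are log2 of whole numbers (largest relative deviation 3.47e-05), and DESeq2 is named in the submitters' notes, so they were read as scaled counts, although the methods text names RPKM. Library sums are therefore not raw depth, and counting intervals are approximate. The deposited ATACseq signal is fragment density per region, which the authors made with bwa, MACS2 and random sampling to an equal number of tags, so depth is unknown.

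All RNA tests were limma 3.58.1 fits (R 4.3.3, trend) over all 4 groups on 13256 of 28051 named genes, with Benjamini-Hochberg adjustment, and every adjusted p is limma's. The 330 unnamed rows (at most 0.00926% of counts) were left out. ATACseq was tested by limma on log2(signal + 1) for 6214 regions with a mean signal above the 25th percentile. Fits were tested on simulated data. Neighbours of the chromosome 1 members, partner genes and marker lists were counted with the same calls. Named partners and neighbours were up to 4 and 3 per comparison, the called genes with the widest changes, of which 1 partner is not reported here. Alternatives were other pseudocounts, filters, thresholds and scalings, a chromosome median, a replicate block and leaving out each library. RNA libraries of the same number deviated together (r 0.189 to 0.629 over 18 pairs, against -0.64 to 0.282 over 36 pairs of different number), so the numbers pair them. The main fits and the permutation test do not use this pairing, and the replicate block was run as an alternative. The labels do not say how cultures were kept apart, so p-values measure the spread between these samples. The members and lists were chosen with earlier results of these data known. Gene models were from GENCODE 44. The windows before gene starts were from RefSeq, where the S100Z entry lies at another start and was not used.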

Additional observations from a re-analysis of the deposited data

Results flagged for a closer look

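The ATRA response of 4 S100 genes differed between the genotypes in the direct test of the interaction (limma). On the log2 scale the response in HK3-null minus that in Cas9 was -1.78 for S100A9 (adjusted p = 5.17e-07), -1.38 for S100A8 (adjusted p = 4.88e-06), -0.89 for S100A4 (adjusted p = 0.000134) and 0.70 for S100A11 (adjusted p = 0.0020). S100A9, S100A8 and S100A11 rose with ATRA in HK3-null, while S100A4 rose in Cas9 and was lower with ATRA in HK3-null. Each of these 4 interactions kept its direction and passed in every alternative that was run.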

How the results depend on the processing

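Of the comparisons of S100 genes under settings other than leaving out a library, 327 kept direction and side of the threshold, 8 newly passed, 1 no longer passed and 3 changed direction, and with 1 library left out the counts were 568, 7, 4 and 9. An unadjusted p under 0.05 with 1.5-fold called 4454 genes in DMSO, 5007 in ATRA, 2782 with ATRA in Cas9 and 3758 with ATRA in HK3-null, against 2553, 2822, 1276 and 1871, and 7 members in ATRA against 4. The replicate block called 2898 genes in the interaction against 1209, and it left the counts of called members as they were, while S100A6, S100A11 and S100P newly passed in the ATRA responses given above. ATACseq libraries of the same number did not deviate together (r -0.155 to 0.031 over 12 pairs), and with the block 5312, 1058 and 1050 regions were called in DMSO, with ATRA in Cas9 and with ATRA in HK3-null, against 5382, 1128 and 1046.

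Direction changed for S100A10 in the interaction with a pseudocount of 10 (0.28), for S100A12 with ATRA in HK3-null after quantile normalization (-0.00047) and for S100A13 in the interaction after quantile normalization (0.028), all far from the threshold, and the cause was not tested. Leaving out 1 library gave ranges of -0.66 to 0.23 for the S100A10 interaction, -5.65 to 0.33 for S100A12 with ATRA in Cas9, -0.27 to 5.71 for its interaction, -0.018 to 0.18 for S100A13 between genotypes in ATRA, -0.15 to 0.044 for its interaction and -0.13 to 0.22 for HK3 between genotypes in ATRA. With the chromosome median subtracted HK3 in ATRA was 0.83 higher in HK3-null (adjusted p = 0.0055). For ATACseq with ATRA, 465 to 1419 regions were called in Cas9 and 489 to 1164 in HK3-null. The S100A6 and S100A4 region ranged from -1.23 to 0.16 in Cas9, so that between 0 and 1 member regions were called (1 without Cas9 ATRA replicate 1, adjusted p = 0.046), and the S100A9 region from -0.41 to 0.72.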
